A study of Saccharomyces cerevisiae with 8 samples.

Results

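Budding yeast, *Saccharomyces cerevisiae*, was compared here by the promoter that drives SIR3. The 4 libraries of the strains in which a GPD promoter expresses SIR3 (GPD-SIR3) or its A2Q form (GPD-SIR3-A2Q) were set against the 4 libraries of wild type (WT) and of a strain lacking SIR3 (SIR3Δ), 2 libraries per strain. All 4 strains are of the W303 background, and total RNA was taken from exponentially growing cells. The table lists 5798 genes, of which 5473 were tested because 2 or more libraries reached a value of 10. Another 325 were not tested, 93 of them without a read in any library. By its second highest library, YAL018C was just inside that limit at 10.06 and YPR202W just outside at 9.996. The labels do not say how many independent clones each strain represents, whether libraries came from separate cultures, which medium was used, or where the GPD cassette sits in the genome.

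Sir3 is a structural protein of yeast heterochromatin. Together with Sir2, a histone deacetylase, and Sir4 it spreads along nucleosomes next to telomeres and over the silent copies of the mating-type genes, and its acetylated N terminus contacts the nucleosome. The GPD promoter is the strong promoter of TDH3, a glyceraldehyde-3-phosphate dehydrogenase gene, and is widely used to overexpress proteins in yeast. The question of this comparison is which transcripts differed with the GPD construct whichever form of SIR3 it carried. Handling shared by the libraries of a class cannot be told apart from the construct in this design. Each class joins 2 different strains, so an average over a class can be moved by 1 of them, and strain values are given throughout.

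The A2Q form differs from SIR3 at the codon after the start codon. The first 30 coding bases of SIR3 (R64, chrXII:1022222-1022251, minus strand) are shown with that codon, number 2, in capitals. The reference codon encodes alanine, and A2Q names its replacement by glutamine.
SIR3: atgGCTaaaacattgaaagatttggacggt

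The other sequences shown lie upstream of genes that were lower in both GPD strains. They were printed only for genes in which the motif was found, and binding was not measured. Gcn4, the activator of amino acid synthesis genes, binds TGACTCA. Cbf1, which acts with Met4 on sulfur genes, binds CACGTG. The window of 270 bases from 350 to 81 bases before the start codon was searched on both strands in 5416 genes, and capitals mark the motif with 12 bases on each side. HIS4, ARG1, ARG7, ARG4, HOM2 and HOM3 are shown for Gcn4.
HIS4 (chrIII:68514-68544, minus strand): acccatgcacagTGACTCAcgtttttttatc
ARG1 (chrXV:218854-218884, plus strand): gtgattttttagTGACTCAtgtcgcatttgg
ARG7 (chrXIII:396513-396543, minus strand): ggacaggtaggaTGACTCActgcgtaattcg
ARG4 (chrVIII:141563-141593, minus strand): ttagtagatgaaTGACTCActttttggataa
HOM2 (chrIV:770161-770191, plus strand): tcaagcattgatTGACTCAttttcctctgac
HOM3 (chrV:258223-258253, minus strand): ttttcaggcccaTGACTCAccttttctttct
MET14, MET5, MET10 and MET16, genes of sulfate assimilation, are shown for Cbf1.
MET14 (chrXI:439596-439625, minus strand): tgccactaatttCACGTGatcaatatattt
MET5, site 1 (chrX:683601-683630, minus strand): atataatttgtcCACGTGatatttcacaga
MET5, site 2 (chrX:683572-683601, minus strand): aatgaatttcatCACGTGcgtattatctct
MET10, site 1 (chrVI:213051-213080, plus strand): gatataccacacCACGTGagcttatagaag
MET10, site 2 (chrVI:213069-213098, plus strand): agcttatagaagCACGTGaccacaattcac
MET16 (chrXVI:877793-877822, minus strand): ttatcatcatttCACGTGgctagtaaaaga

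SIR3 (YLR442C, XII:1019315-1022251, minus strand) checks the strain labels. Values here are read counts scaled by the authors so that the genes of each library sum to 7006670. SIR3 had 448 and 484 in WT, 39.1 and 36.8 in SIR3Δ, 10730 and 13865 in GPD-SIR3, and 13132 and 13217 in GPD-SIR3-A2Q. All 4 GPD libraries stood far above the other 4, and the strain lacking SIR3 was lowest. The difference over the GPD pair was 6.55 ± 0.10 on the log2 scale (SE; limma on log2(value + 1), Benjamini-Hochberg adjusted p = 1.08e-09), and an exact two-sided permutation test over the libraries gave p = 0.0286, the smallest that its 70 arrangements allow. Counting strains in place of libraries, no arrangement can give less than 0.333. Against WT alone the difference was 4.71 ± 0.13 in GPD-SIR3 and 4.82 ± 0.13 in GPD-SIR3-A2Q, and the GPD strains differed from each other by -0.11 ± 0.13 (adjusted p = 0.786).

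Across all tested genes, 36 (0.658%) were higher and 82 (1.5%) lower over the GPD pair at an adjusted p below 0.05. Those 118 (2.16%) are a mixture, because the model sets the contrast against the spread between libraries of a strain and not against the difference between strains of a class. Irrespective of the test, all 4 GPD libraries lay above the other 4 for 166 genes (3.03%) and below them for 157 (2.87%). Genes that met both conditions numbered 11 higher (0.201%) and 54 lower (0.987%). The strictest reading, a call in each of the 4 strain pairs in 1 direction, left 2 higher (0.0365%) and 7 lower (0.128%). A fit with 2 class means took the 4 libraries of a class as replicates (6 residual degrees of freedom), so that strain differences entered the spread. It called 4 genes higher and 27 lower, and it still counts libraries and not strains. Leaving out 1 library at a time gave 16 to 38 higher and 53 to 88 lower, with the lowest counts when GPD-SIR3-A2Q 2 and GPD-SIR3-A2Q 1, in that order, were left out. Depth was 7006670 to 18077542 reads on genes, lowest in GPD-SIR3 2.

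The 9 genes called in all 4 strain pairs were SIR3 and YOL086W-A, which were higher, and HIS4, ARG7, MET3, MET5, MET6, MET14 and RPS1A, which were lower. Of the lower genes, 4 belong to sulfur assimilation and methionine synthesis and 2 to histidine and arginine synthesis. None of the 9 differed by test between the GPD strains, and SIR3 was the member that differed between SIR3Δ and WT. The count of higher genes was 2 whichever library was left out, while the count of lower genes ranged from 1 to 9, with 1 without GPD-SIR3-A2Q 1 and 1 without WT 2.

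**Figure D1:**
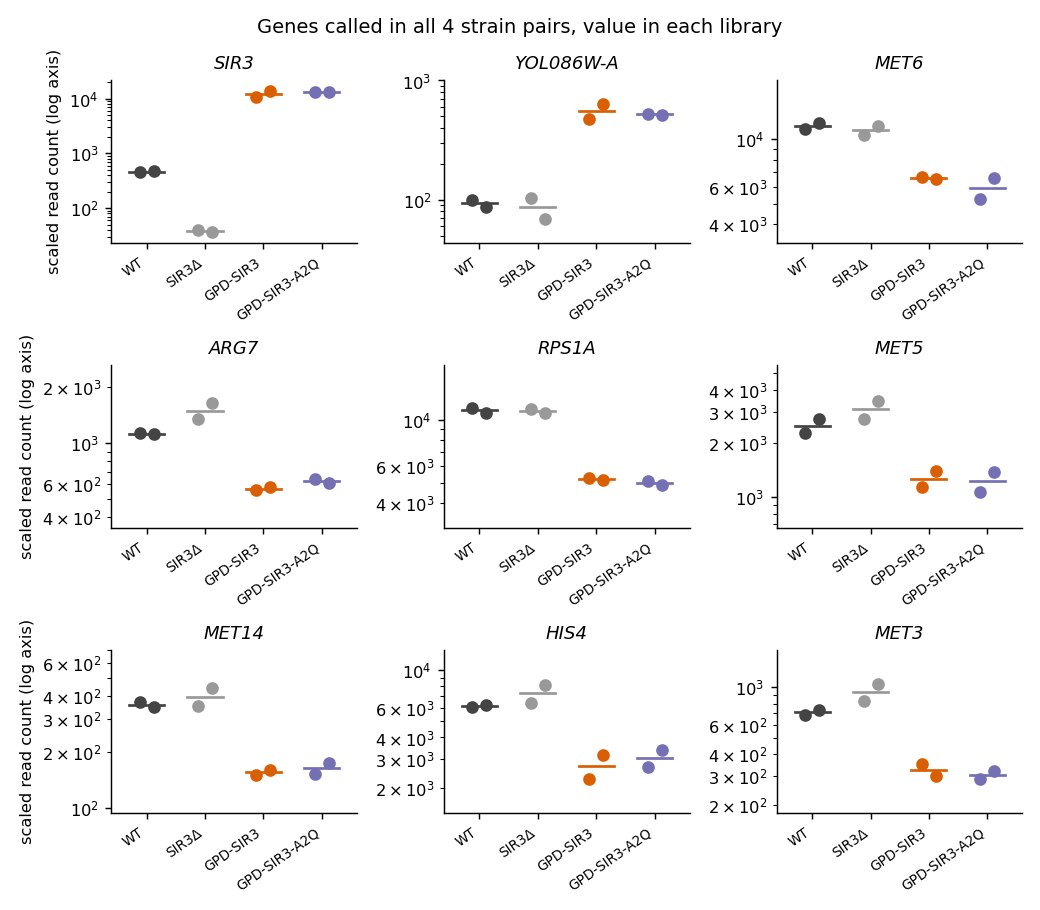
Scaled read count (log axis) in each of the 8 libraries, by strain, for the 9 genes called in all 4 strain pairs. SIR3 and YOL086W-A are high in all 4 GPD libraries, and the other 7 genes are low in them, with no overlap between the classes.

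YOL086W-A (XV:159173-159445, plus strand) encodes Mhf1, a histone-fold protein of the CENP-S/CENP-X complex that acts in DNA repair and at kinetochores. It had 99.9 and 87.0 in WT, 104 and 69.8 in SIR3Δ, 474 and 634 in GPD-SIR3, and 522 and 516 in GPD-SIR3-A2Q. The classes did not overlap, and the libraries of the 2 GPD strains overlapped. The difference was 2.57 ± 0.15 (SE, log2), or 5.93-fold (limma adjusted p = 5.85e-05), and the smallest of the 4 strain differences was 2.46. Its neighbour ADH1, the main fermentative alcohol dehydrogenase, lies 102 bases away on the other strand and differed by 0.03 ± 0.07 (adjusted p = 0.878). The CUT826 transcript, antisense to YOL086W-A over 273 bases, differed by -0.04 ± 0.17 (adjusted p = 0.95). Its partner in the complex, MHF2 (YDL160C-A), was 0.92 ± 0.19 higher over the pair (adjusted p = 0.0431), but with overlapping libraries. MHF2 means were 51.4 in WT, 10.1 in SIR3Δ, 57.5 in GPD-SIR3 and 34.7 in GPD-SIR3-A2Q, and its call was lost whichever library was left out (adjusted p up to 0.178). The other 9 listed inner kinetochore genes were not called, and over all genes 0.658% were called higher.

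RPS1A (YLR441C, XII:1018141-1018908, minus strand) encodes a protein of the small ribosomal subunit and lies 406 bases beyond the 3′ end of SIR3 on the same strand. It had 11445 and 10728 in WT, 11237 and 10820 in SIR3Δ, 5272 and 5170 in GPD-SIR3, and 5073 and 4858 in GPD-SIR3-A2Q. The GPD libraries averaged 46.1% of the others, and replicates lay close together. The difference was -1.12 ± 0.06 (SE, log2; limma adjusted p = 4.67e-05), and the strain differences ran from -1.08 to -1.16. Its paralog RPS1B, on chromosome XIII, differed by -0.07 ± 0.08 (adjusted p = 0.755), and 3.48% of the 50-base stretches of RPS1A occur elsewhere in the genome. On the other side of SIR3, ECM7 starts 373 bases away on the opposite strand and differed by -0.06 ± 0.09 (adjusted p = 0.807). Of the 10 nearest genes, 5 on each side, 9 were tested and RPS1A was the 1 called, beside 1.5% of all genes called lower. No tested non-coding transcript overlaps SIR3 or lies within 1 kb of it, so none could be called there.

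**Figure D2:**
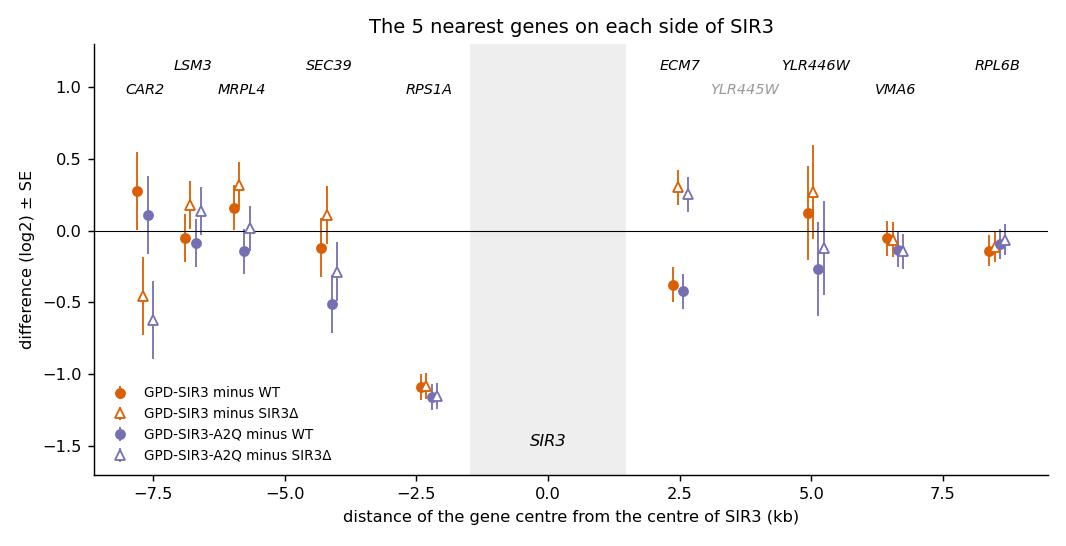
Difference (log2, ± SE) of the tested genes among the 5 nearest on each side of SIR3, by distance from the centre of SIR3 in kb, for each of the 4 strain pairs. RPS1A lies near -1.1 in all 4 pairs, and none of its neighbours was called over the GPD pair.

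Genes from which the GPD promoter and its regulation come did not pass the test. TDH3 itself had 108644 and 120043 in WT, 111943 and 124139 in SIR3Δ, 132915 and 114782 in GPD-SIR3, and 118178 and 114222 in GPD-SIR3-A2Q. These libraries overlapped, and the difference was 0.05 ± 0.08 (limma adjusted p = 0.842). None of 4 activators of the promoter was called by limma, edgeR or DESeq2 (2 at an unadjusted limma p below 0.05), among them RAP1 (0.05 ± 0.08) and GCR1 (-0.31 ± 0.13, adjusted p = 0.386). Of 21 genes of glycolysis and fermentation, 0 were called by limma, edgeR or DESeq2, 1 was called lower by limma-voom, and 3 had an unadjusted limma p below 0.05. In that list HXK1, a hexokinase, had all 4 GPD libraries below the others, with means of 958 in WT, 564 in SIR3Δ, 244 in GPD-SIR3 and 363 in GPD-SIR3-A2Q, but its difference of -1.48 ± 0.37 missed the threshold (adjusted p = 0.109). The partners of Sir3 differed by 0.21 ± 0.18 for SIR1, -0.27 ± 0.14 for SIR2 and 0.16 ± 0.09 for SIR4, and none was called (adjusted p = 0.667, 0.466 and 0.497). None of 19 further silencing and N-terminal acetyltransferase genes, such as NAT1 (0.11 ± 0.11) and ARD1 (-0.04 ± 0.10), was called by limma, edgeR or DESeq2, and 2 had an unadjusted limma p below 0.05.

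Sulfur assimilation and methionine synthesis held the largest share of lower genes among the metabolic lists. Yeast takes up sulfate, activates and reduces it to sulfide, and joins the sulfide to a carbon chain to form homocysteine and methionine. Of 23 tested genes 10 were called lower and 0 higher, beside 1.5% lower over all genes. In all 10 the 8 libraries separated by class, and the median difference of the list was -0.63, beside 0.05 for all genes. Leaving out 1 library gave 6 to 10 lower genes, with 6 without GPD-SIR3-A2Q 1. Without the strain GPD-SIR3 the count was 5.

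Uptake and activation came first in the pathway. SUL2, a sulfate permease, had 55.3 and 103 in WT, 112 and 227 in SIR3Δ, 51.3 and 34.0 in GPD-SIR3, and 21.6 and 34.9 in GPD-SIR3-A2Q. WT 1 was only just above GPD-SIR3 1, and replicates varied widely. The difference of -1.67 ± 0.30 (limma adjusted p = 0.0239) lost its call without any of 5 libraries (GPD-SIR3-A2Q 1 and 2, WT 2, GPD-SIR3 2 and SIR3Δ 2), with adjusted p up to 0.149. MET3, the ATP sulfurylase that activates sulfate, had 686 and 737 in WT, 829 and 1039 in SIR3Δ, 352 and 296 in GPD-SIR3, and 287 and 317 in GPD-SIR3-A2Q. All 4 GPD libraries lay well below the lowest other library. MET3 differed by -1.38 ± 0.11 (adjusted p = 0.000187). MET14, the kinase of the next step, had 369 and 349 in WT, 351 and 438 in SIR3Δ, 151 and 161 in GPD-SIR3, and 153 and 176 in GPD-SIR3-A2Q. Its 4 GPD libraries lay close together, and the difference was -1.22 ± 0.11 (adjusted p = 0.000505).

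In the reduction steps, called members were again lower in both GPD strains. MET16, the reductase that forms sulfite, had means of 187 ± 15.7 in WT, 192 ± 32.9 in SIR3Δ, 109 ± 11.3 in GPD-SIR3 and 90.7 ± 16.9 in GPD-SIR3-A2Q (SD, n = 2 libraries each), and it differed by -0.93 ± 0.14 (limma adjusted p = 0.00967, or 0.056 without GPD-SIR3-A2Q 1). MET5 and MET10 encode the subunits of sulfite reductase. MET5 had 2273 and 2724 in WT, 2748 and 3452 in SIR3Δ, 1140 and 1387 in GPD-SIR3, and 1064 and 1376 in GPD-SIR3-A2Q, a difference of -1.17 ± 0.12 (adjusted p = 0.00113). MET10 differed by -1.03 ± 0.13 (adjusted p = 0.00296). For both subunits the 8 libraries separated by class. MET17, which joins sulfide to O-acetylhomoserine, was at 64.1% of the other strains' level (-0.63 ± 0.09, adjusted p = 0.0051).

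Methionine synthase, MET6, was among the most abundant members. It had 11107 and 11828 in WT, 10482 and 11493 in SIR3Δ, 6631 and 6516 in GPD-SIR3, and 5242 and 6561 in GPD-SIR3-A2Q. The classes were far apart, with GPD-SIR3-A2Q 1 lowest. MET6 differed by -0.85 ± 0.09 (limma adjusted p = 0.000803). STR3, a cystathionine lyase, and MHT1, which uses S-methylmethionine, were also lower, at -1.02 ± 0.17 and -0.83 ± 0.16. STR3 lost its call without any of 5 libraries and MHT1 without any of 7 (adjusted p up to 0.0747 and 0.198). Members that were not called included the transsulfuration genes CYS3 (0.05 ± 0.13) and CYS4 (-0.09 ± 0.07) and the S-adenosylmethionine synthetases SAM1 (-0.26 ± 0.07) and SAM2 (-0.11 ± 0.07). MET2 had separated libraries and differed by -0.95 ± 0.21 but was not called (adjusted p = 0.0715).

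Amino acid synthesis genes outside the sulfur pathway were lower as well. Of 47 tested genes 18 were called lower and 0 higher, 17 of them with separated libraries, beside 1.5% lower over all genes. The median difference was -0.39, and 46 of the 47 genes were below 0, beside 37.8% of all genes. Leaving out 1 library gave 11 to 20 lower genes, with 11 without GPD-SIR3-A2Q 1, and the fit with 2 class means gave 11. Without the strain SIR3Δ the count was 5, and without WT it was 23. The median of the list was -0.33 for GPD-SIR3 minus WT, -0.61 for GPD-SIR3 minus SIR3Δ, -0.19 for GPD-SIR3-A2Q minus WT and -0.45 for GPD-SIR3-A2Q minus SIR3Δ, and these pairs share libraries.

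Arginine synthesis held the largest differences. ARG1, argininosuccinate synthetase, had 1065 and 1424 in WT, 2136 and 3203 in SIR3Δ, 483 and 552 in GPD-SIR3, and 631 and 631 in GPD-SIR3-A2Q. The classes did not overlap, but SIR3Δ also exceeded WT by 1.09 (limma adjusted p = 0.0493), and the difference of -1.65 ± 0.14 over the pair (adjusted p = 0.00039) was smaller against WT, at -1.25 in GPD-SIR3 and -0.96 in GPD-SIR3-A2Q. ARG7, an ornithine acetyltransferase that was not on the list, had 1131 and 1115 in WT, 1343 and 1647 in SIR3Δ, 558 and 577 in GPD-SIR3, and 638 and 610 in GPD-SIR3-A2Q. It was lower in every pair, by -1.12 ± 0.09 over the whole (adjusted p = 0.000187). ARG4, argininosuccinate lyase, and ARG5,6, which acts on acetylglutamate, differed by -1.05 ± 0.14 and -0.78 ± 0.09. ARG3 had separated libraries and a difference of -0.84 ± 0.23 but was not called (adjusted p = 0.154).

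In histidine synthesis, HIS4 carries several of the pathway's enzyme activities. HIS4 had 6069 and 6188 in WT, 6424 and 8211 in SIR3Δ, 2284 and 3160 in GPD-SIR3, and 2689 and 3393 in GPD-SIR3-A2Q. The classes did not overlap, and SIR3Δ 2 was highest. HIS4 differed by -1.23 ± 0.13 (limma adjusted p = 0.00113), HIS1 by -0.61 ± 0.07 and HIS5 by -0.58 ± 0.09. HIS5 lost its call without GPD-SIR3-A2Q 1 (adjusted p = 0.0648). The aspartate-family genes HOM3, aspartokinase, and HOM2, the next enzyme, differed by -0.70 ± 0.08 and -0.64 ± 0.07, while THR1 and THR4 of the threonine branch were not called (-0.14 ± 0.10 and -0.09 ± 0.21). ARO3 and ARO4, which open the aromatic pathway, differed by -0.64 ± 0.08 and -0.53 ± 0.07. Branched-chain genes LEU2, LEU9, ILV3 and ILV2 differed by -0.57, -0.51, -0.43 and -0.32 (SE 0.07 to 0.08); ILV2 was at the threshold (adjusted p = 0.05 after rounding) and lost its call whichever library was left out, up to 0.29. Of the lysine genes only LYS21 was called, at -0.41 ± 0.08, and 36.7% of its 50-base stretches occur elsewhere. Reads it shares with LYS20 (-0.10 ± 0.10) cannot be told apart. ASN1 and SER33 were also lower, at -0.46 ± 0.08 and -0.51 ± 0.09. Calls of LYS21, ILV3, ASN1 and SER33 were each lost in 4 to 7 leave-one-out fits (adjusted p up to 0.259), and that of LEU9 without GPD-SIR3-A2Q 1 (adjusted p = 0.0582).

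**Figure D3:**
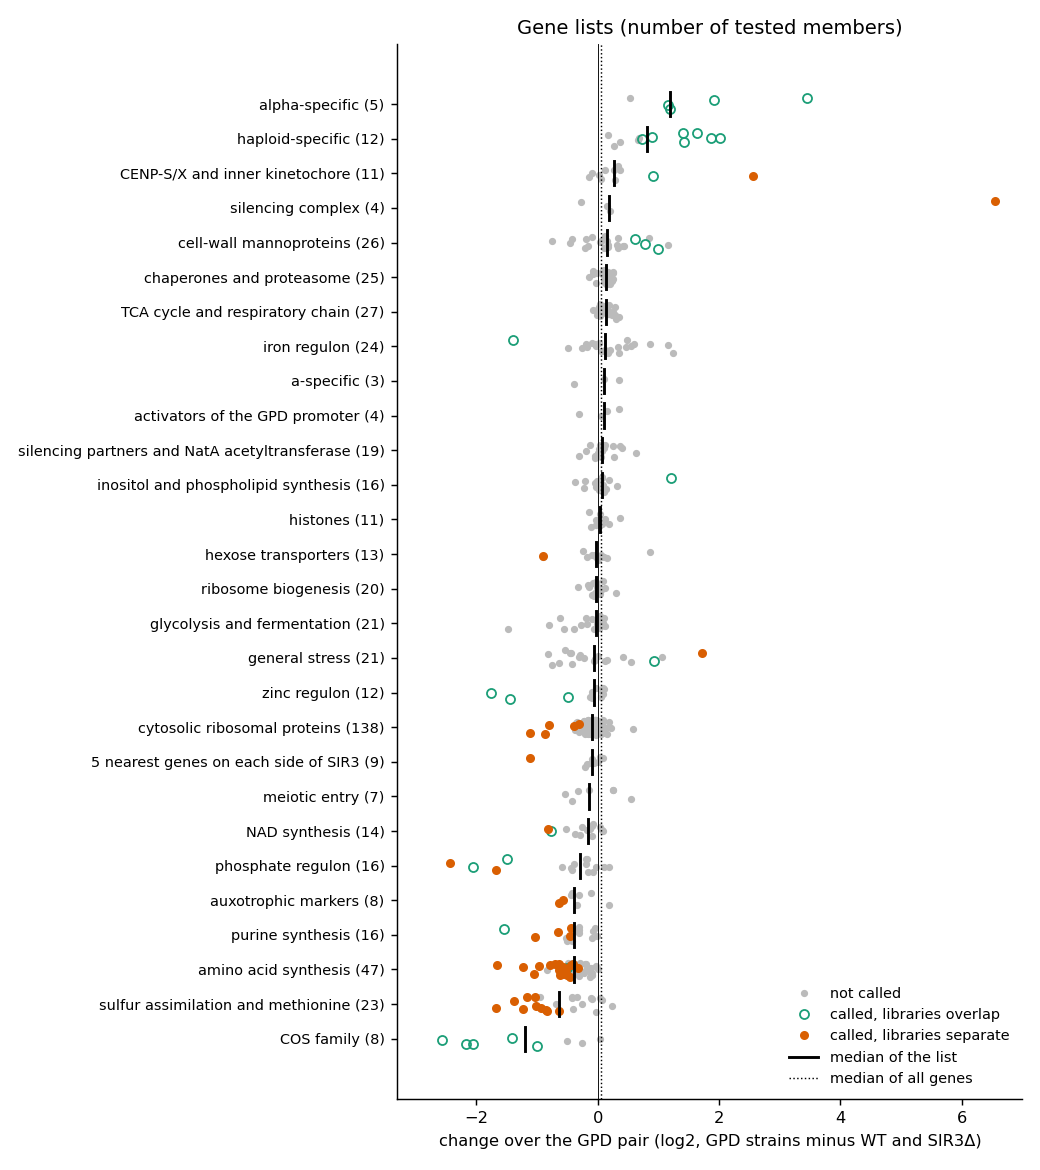
Difference over the GPD pair (log2) of the tested members of the gene lists, with the number of members in brackets. Called members with separated libraries, called members with overlapping libraries and members not called have separate symbols, black bars are list medians, and the dotted line is the median of all genes, 0.05. The sulfur and amino acid lists lie to the left of it, and SIR3 stands alone at 6.55.

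The motif TGACTCA was found in the window of 20 of 53 called and separated lower genes that have one (37.7%), beside 152 of 5416 genes (2.81%). It was found in 26 of the 47 amino acid genes, in 12 of the 17 called and separated and in 13 of the 29 not called. CACGTG was found in 10 of the 53 (18.9%), beside 4.06% of all genes, and in 6 of the 10 called sulfur genes and 5 of the 13 not called. CTGTGG, the core bound by Met31 and Met32, was found in 11 of the 53 (20.8%), beside 7.2%. Of the 11 called and separated higher genes, 0, 0 and 1 held the motifs. MET5 and MET16 held both TGACTCA and CACGTG, and HIS1 and HOM3, outside the sulfur pathway, also held both. MET3 and MET6 held CTGTGG but neither TGACTCA nor CACGTG, and RPS1A held none of the motifs.

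The whole HIS4 window (R64, chrIII:68414-68683, minus strand) is printed with its exact match in capitals, because HIS4 was lower in every strain pair.
HIS4 window: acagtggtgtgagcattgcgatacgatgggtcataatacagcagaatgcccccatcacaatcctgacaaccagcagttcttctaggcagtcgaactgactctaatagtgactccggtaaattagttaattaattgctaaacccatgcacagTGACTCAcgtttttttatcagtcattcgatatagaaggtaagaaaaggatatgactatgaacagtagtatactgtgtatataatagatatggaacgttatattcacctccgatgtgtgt

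RNA levels of the activators themselves did not differ by test. GCN4 had 5987 and 6204 in WT, 5946 and 5684 in SIR3Δ, 6019 and 6265 in GPD-SIR3, and 5629 and 5076 in GPD-SIR3-A2Q. The libraries overlapped, and the difference was -0.06 ± 0.07 (limma adjusted p = 0.771). GCN2, the kinase that controls translation of GCN4, differed by 0.02 ± 0.09, MET4 by 0.28 ± 0.12, CBF1 by 0.06 ± 0.12, MET28 by -0.13 ± 0.39, MET31 by 0.66 ± 0.17 and MET32 by -0.68 ± 0.31, none of them called (adjusted p = 0.111 to 0.924). These genes were looked up after the results were seen. Gcn4 is controlled mainly at translation, which total RNA does not measure. Whether Gcn4 activity differed between the strains was not tested.

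Of 16 tested purine synthesis genes 5 were called lower, 0 higher and 11 not at all, beside 1.5% lower over all genes. In 4 of the 5 the libraries separated, the median of the list was -0.39, and all 16 differences were below 0. IMD2, an IMP dehydrogenase of the guanine branch, was the called member without separation. It had 483 and 346 in WT, 1107 and 940 in SIR3Δ, 67.5 and 46 in GPD-SIR3, and 868 and 852 in GPD-SIR3-A2Q. GPD-SIR3 alone was low, and the difference of -1.55 ± 0.15 (limma adjusted p = 0.000745) was 0.41 without that strain. Of its 50-base stretches 33.7% occur elsewhere in the genome. ADE17, of the last steps of the pathway, had 7956 and 5542 in WT, 7637 and 5420 in SIR3Δ, 2360 and 3373 in GPD-SIR3, and 2702 and 4883 in GPD-SIR3-A2Q. Replicate 2 of GPD-SIR3-A2Q came close to the lowest other library, and the difference of -1.03 ± 0.22 was near the threshold (limma adjusted p = 0.0493). ADE13, ADE5,7 and ADE12 differed by -0.65 ± 0.13, -0.46 ± 0.09 and -0.44 ± 0.09. Leaving out 1 library gave 1 to 4 called genes of the list (1 each without WT 1, GPD-SIR3 1, GPD-SIR3-A2Q 1 or SIR3Δ 1). The fit with 2 class means gave 0.

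A further 4 lower genes, GAP1, MEP2, AGP1 and PCL5, were on no list and were picked after their values were seen, so they stand only for themselves. GAP1, the general amino acid permease, had 2776 and 2476 in WT, 1581 and 1448 in SIR3Δ, 1297 and 1319 in GPD-SIR3, and 819 and 914 in GPD-SIR3-A2Q. The classes did not overlap, but SIR3Δ was nearer to GPD-SIR3 than to WT. The difference was -0.90 ± 0.08 (limma adjusted p = 0.000462), and both GPD-SIR3 against GPD-SIR3-A2Q (0.60) and SIR3Δ against WT (-0.79) were called. MEP2, an ammonium permease, and AGP1, an amino acid permease, differed by -0.82 ± 0.10 and -0.59 ± 0.08. PCL5, a cyclin that promotes turnover of Gcn4, differed by -0.99 ± 0.16 and lost its call without SIR3Δ 1 (adjusted p = 0.056).

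Of 138 tested ribosomal protein genes 5 were called lower and 0 higher, all with separated libraries, beside 1.5% lower over all genes, and the list median was -0.09. Beside RPS1A these were RPS9A, RPS22B, RPS14B and RPS13. RPS9A had 1235 and 1522 in WT, 1161 and 1406 in SIR3Δ, 874 and 779 in GPD-SIR3, and 629 and 636 in GPD-SIR3-A2Q. Both GPD strains were lower, GPD-SIR3-A2Q the more so. RPS9A differed by -0.87 ± 0.10 (limma adjusted p = 0.00202) and its paralog RPS9B by -0.22 ± 0.08 (adjusted p = 0.348). RPS22B differed by -0.80 ± 0.16, RPS14B by -0.40 ± 0.07 and RPS13 by -0.30 ± 0.06, while the paralogs RPS22A and RPS14A differed by 0.03 ± 0.08 and 0.08 ± 0.07. The small nucleolar RNA snR44 overlaps RPS22B by 211 bases on the same strand and differed by -0.78 ± 0.24 (limma adjusted p = 0.202). Whether reads of snR44 contribute to the RPS22B value was not tested. Calls of RPS22B, RPS14B and RPS13 were each lost in 6 to 8 leave-one-out fits (adjusted p up to 0.207, 0.198 and 0.21), and the list held 2 to 4 called lower genes in those fits, with 1 higher gene without GPD-SIR3 1.

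Single members of other lists were also lower with separated libraries. HXT4, a hexose transporter, had 1150 and 1462 in WT, 1210 and 1118 in SIR3Δ, 606 and 919 in GPD-SIR3, and 472 and 727 in GPD-SIR3-A2Q. It was the 1 called of 13 hexose transporters (-0.89 ± 0.17, limma adjusted p = 0.0343), beside 1.5% of all genes called lower. HXT4 lost its call in 6 leave-one-out fits (up to 0.161). BNA1, of NAD synthesis, had 244 and 257 in WT, 220 and 229 in SIR3Δ, 139 and 160 in GPD-SIR3, and 112 and 131 in GPD-SIR3-A2Q (-0.82 ± 0.11, adjusted p = 0.00447). LEU2 and MET17 were the called members among 8 genes often used as auxotrophic markers, both lower, beside the same 1.5% of all genes. URA3, TRP1, HIS3 and ADE2 were not called (-0.30 ± 0.12, 0.19 ± 0.25, -0.44 ± 0.10 and -0.43 ± 0.16). Histones, chaperones and proteasome, respiratory chain, ribosome biogenesis and meiotic entry had 0 called by limma of 11, 25, 27, 20 and 7 tested genes, and 0 by edgeR, DESeq2 or limma-voom. An unadjusted limma p below 0.05 was found for 1, 1, 3, 0 and 2 of them.

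Beyond SIR3 and YOL086W-A, 9 higher genes had separated libraries. HSP12, a small membrane stress protein, had 44.1 and 41.7 in WT, 26.7 and 28.6 in SIR3Δ, 141 and 216 in GPD-SIR3, and 92.1 and 65.1 in GPD-SIR3-A2Q. GPD-SIR3 was highest, and the difference between the GPD strains, 1.16, was not called (limma adjusted p = 0.112). HSP12 was 1.73 ± 0.19 higher over the pair (adjusted p = 0.00144), but its call was lost without the strain GPD-SIR3 (0.103) and with 2 class means (0.0693). Of 21 general stress genes HSP12 and HSP26 (0.93 ± 0.20, overlapping libraries) were called higher, beside 0.658% of all genes. The median of the list was -0.06, and HSP26 lost its call in 7 of the leave-one-out fits (up to 0.21).

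AQY2, an aquaporin gene, and YLL053C overlap by 50 bases on 1 strand of chromosome XII and so are not independent. AQY2 had 381 and 275 in WT, 300 and 217 in SIR3Δ, 757 and 601 in GPD-SIR3, and 563 and 568 in GPD-SIR3-A2Q, all GPD libraries above the rest (1.10 ± 0.15, limma adjusted p = 0.00406). YLL053C differed by 1.13 ± 0.17 and lost its call without GPD-SIR3-A2Q 2 (adjusted p = 0.0583). SGA1, a glucoamylase, GRE2, a methylglyoxal reductase, UTH1, SUR7, a membrane protein of eisosomes, PRP22, a splicing helicase, and PRY2, a sterol-binding protein, differed by 0.72, 0.57, 0.50, 0.48, 0.47 and 0.44 (SE 0.08 to 0.13). Each of these 6 lost its call in 5 to 8 of the leave-one-out fits, with adjusted p up to 0.271.

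Strain pairs that share no library gave a second view. GPD-SIR3 against WT had 13 genes higher (0.238%) and 59 lower (1.08%), and GPD-SIR3-A2Q against SIR3Δ had 20 higher (0.365%) and 27 lower (0.493%). Both called 16 genes lower, which is 27.1% of the first list and 59.3% of the second, 2 higher, and 0 in opposite directions. The 16 included HIS4, HOM2, HOM3, ARG5,6, MET6, MET10, MET3, MET5, SRY1, MET14, GAP1, RPS1A, ARG7, MEP2 and ARG1. Crossed the other way, GPD-SIR3 against SIR3Δ had 124 higher (2.27%) and 106 lower (1.94%), and GPD-SIR3-A2Q against WT had 7 higher (0.128%) and 34 lower (0.621%). They shared 10 lower genes, which is 9.43% of the first list and 29.4% of the second, and 2 higher genes. Another 22 genes were called in opposite directions. Across the 5473 genes Pearson's r between the differences was 0.28 in the first crossing and -0.23 in the second, and the genes are not independent replicates.

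**Figure D4:**
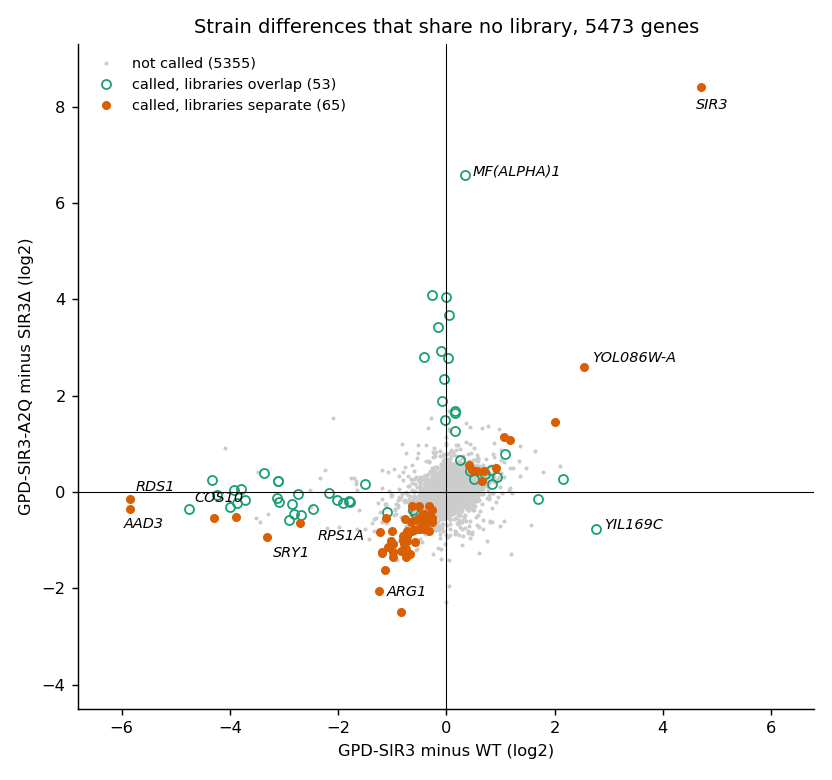
Difference (log2) of GPD-SIR3 minus WT on the x axis and of GPD-SIR3-A2Q minus SIR3Δ on the y axis for 5473 genes. Filled points, called with separated libraries, lie in the lower left and upper right, where separation places them by construction. SIR3 is far to the upper right, while open points, called with overlapping libraries, lie along the axes.

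Of the 25 higher genes called without separation 17 differed between SIR3Δ and WT, beside 53 of all genes (0.968%), and 15 differed between the GPD strains, beside 80 of all genes (1.46%; 0.585% higher and 0.877% lower in GPD-SIR3). Of the 25, 12 differed in both ways and 5 in neither. The 25 included 4 of 5 alpha-specific and 7 of 12 haploid-specific genes, which are off in diploid cells, beside 0.658% of all genes called higher. STE3, the a-factor receptor, had 2033 and 2287 in WT, 39.9 and 32.0 in SIR3Δ, 1709 and 1532 in GPD-SIR3, and 233 and 283 in GPD-SIR3-A2Q. GPD-SIR3-A2Q lay between SIR3Δ and WT, and GPD-SIR3 was below WT. STE3 was 1.20 ± 0.11 higher over the pair (limma adjusted p = 0.000626), yet the pair's mean was 85.5% of the other strains' mean, and the difference was -1.74 without SIR3Δ. MF(ALPHA)1, which encodes the alpha pheromone, had 2940 and 3154 in WT, 7.36 and 2.42 in SIR3Δ, 3467 and 4273 in GPD-SIR3, and 484 and 539 in GPD-SIR3-A2Q (3.46 ± 0.24, adjusted p = 7.8e-05), and it too turned negative without SIR3Δ (-1.12). In the fit with 2 class means, none of the mating genes named here kept its call (adjusted p = 0.626 for MF(ALPHA)1).

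Of the 28 lower genes without separation 26 differed between the GPD strains, all 26 lower in GPD-SIR3, and 26 lay within 30 kb of a chromosome end. Of all 5473 tested genes, 35 lay under 10 kb from an end, 78 at 10 to 20 kb and 120 at 20 to 30 kb. Of 8 tested COS genes, a subtelomeric family of membrane proteins, 5 were called lower with 0 separated, beside 1.5% lower over all genes. COS8 had 380 and 312 in WT, 631 and 525 in SIR3Δ, 24.7 and 17.0 in GPD-SIR3, and 457 and 464 in GPD-SIR3-A2Q. GPD-SIR3-A2Q was within the range of the other strains, and without the strain GPD-SIR3 the difference was 0.05 in place of -2.16 ± 0.14 (limma adjusted p = 7.8e-05). ADH4, an alcohol dehydrogenase of the zinc regulon, had 313 and 290 in WT, 1704 and 1558 in SIR3Δ, 46.3 and 33.0 in GPD-SIR3, and 1072 and 1092 in GPD-SIR3-A2Q, and its direction turned likewise (0.63 in place of -1.75 ± 0.12). Parts of COS1, COS6, COS8, PHO11 and PHO12 recur elsewhere in the genome (17.4% to 88.3% of their 50-base stretches), so their counts are uncertain.

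Nutrient and cell-wall lists also held called genes whose value over the pair joined unlike strains. Of 16 phosphate regulon genes 4 were lower, 2 with separated libraries, of 12 zinc regulon genes 3 were lower and of 24 iron regulon genes 1 was lower, none of these 4 with separated libraries. Over all genes 1.5% were lower and 0.987% lower with separated libraries. ZRT1, the high-affinity zinc transporter, had 2550 and 1926 in WT, 1328 and 822 in SIR3Δ, 323 and 204 in GPD-SIR3, and 1274 and 1169 in GPD-SIR3-A2Q. GPD-SIR3 was lowest, and GPD-SIR3-A2Q lay within the range of SIR3Δ. ZRT1 differed by -1.44 ± 0.19 over the pair (limma adjusted p = 0.00369) and by -0.32, not called, without GPD-SIR3.

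Of 26 genes for cell-wall mannoproteins 3 were higher, none with separated libraries, beside 0.658% higher over all genes. Leaving out 1 library gave 1 or 2, with 1 without GPD-SIR3 2 and without either library of the A2Q strain. YIL169C had 235 and 185 in WT, 3993 and 2847 in SIR3Δ, 1484 and 1375 in GPD-SIR3, and 2296 and 1716 in GPD-SIR3-A2Q. WT was lowest and SIR3Δ highest, with both GPD strains between them. The difference was 1.004 ± 0.14 over the pair (limma adjusted p = 0.00542) but -1.0 without WT, and HPF1, another mannoprotein gene, likewise turned from 0.77 ± 0.16 to -0.47. SED1, a cell-wall protein gene, had 3291 and 2638 in WT, 3365 and 2560 in SIR3Δ, 5442 and 5867 in GPD-SIR3, and 4009 and 3263 in GPD-SIR3-A2Q. GPD-SIR3 was highest, and SED1 differed by 0.62 ± 0.12 (adjusted p = 0.0319). Its call was lost in 6 leave-one-out fits (up to 0.202), without the strain WT, GPD-SIR3 or SIR3Δ, and with 2 class means (0.308). Of 16 inositol and phospholipid synthesis genes INO1 alone was called, and of 3 tested a-specific genes 0 were called by limma, edgeR or DESeq2, with 0 at an unadjusted limma p below 0.05.

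The distance from a chromosome end divided the called genes. Under 10 kb, 17 of 35 tested genes were lower and 2 of the 17 had separated libraries; at 10 to 20 kb 15 of 78 were lower, 5 with separated libraries. From 20 to 30 kb 1 of 120 was lower, and from 30 to 50 kb 0 of 290. Beyond 50 kb 49 of 4927 were lower (0.994%), and 47 of the 49 had separated libraries. All 9 genes called in every strain pair lay beyond 50 kb, SIR3 itself at 55.9 kb, but so did 4927 of the 5473 tested genes.

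**Figure D5:**
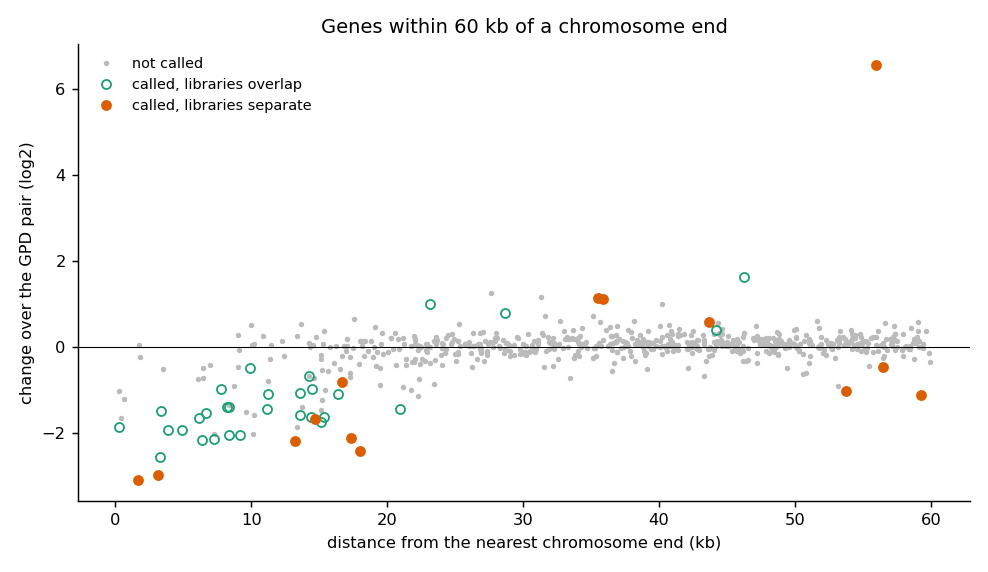
Difference over the GPD pair (log2) against distance from the nearest chromosome end in kb, for tested genes within 60 kb. Open points, called with overlapping libraries, gather below 0 within 20 kb of the end, and filled points, called with separated libraries, are found both there and farther inside, with SIR3 at 6.55.

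Of the lower genes within 20 kb of an end, 7 had separated libraries, which places both GPD strains below the others by construction. Tested alone, GPD-SIR3-A2Q was called lower than WT for PHO89 and lower than SIR3Δ for SRY1, and for the other 5 it was called against neither strain. PHO89, a sodium-phosphate symporter 14.7 kb from its end, had 2053 and 2140 in WT, 1844 and 1404 in SIR3Δ, 371 and 277 in GPD-SIR3, and 1014 and 1034 in GPD-SIR3-A2Q. The A2Q strain stood between GPD-SIR3 and the other strains, and the difference over the pair was -1.68 ± 0.12 (limma adjusted p = 9.88e-05). SRY1, a hydroxyaspartate dehydratase, had 380 and 320 in WT, 452 and 418 in SIR3Δ, 34.6 and 34.0 in GPD-SIR3, and 245 and 209 in GPD-SIR3-A2Q (-2.12 ± 0.11). GIT1, a glycerophosphoinositol permease, had 301 and 423 in WT, 279 and 319 in SIR3Δ, 12.1 and 24.0 in GPD-SIR3, and 171 and 244 in GPD-SIR3-A2Q (-2.42 ± 0.22). For each of these 3 genes the difference between the GPD strains was itself called, with GPD-SIR3 the lower. MHT1, the sulfur gene described above, is also among the 7, 16.6 kb from its end, and its difference between the GPD strains was not called (-1.02 ± 0.23, adjusted p = 0.0916).

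RDS1, a zinc-cluster transcription factor, and AAD3, of an aryl-alcohol dehydrogenase family, are neighbours 433 bases apart, at 3.16 and 1.64 kb from an end of chromosome III. RDS1 had 195 and 236 in WT, 191 and 206 in SIR3Δ, 1.80 and 4.0 in GPD-SIR3, and 183 and 178 in GPD-SIR3-A2Q. The A2Q libraries lay only just below SIR3Δ, and the 4 strain differences ran from -0.14 to -5.85 beside -2.99 ± 0.20 over the pair (limma adjusted p = 7.8e-05). AAD3 had 104 and 88.2 in WT, 98.8 and 86.7 in SIR3Δ, 1.80 and 0 in GPD-SIR3, and 73.5 and 71.8 in GPD-SIR3-A2Q, with 4 and 0 reads behind the GPD-SIR3 values. YPL279C was low in the same way with a smallest difference of -0.34, 79.4% of its 50-base stretches recur elsewhere, and its call was lost in 6 leave-one-out fits (up to 0.12).

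Non-coding transcripts were fitted apart. Of 3093 tested, 1 was higher (0.0323%) and 33 lower (1.07%), 31 of these 34 lay within 20 kb of an end, and 7 of the 34 had separated libraries. The share of all 3093 that lies within 20 kb is not given here. Several annotated classes overlap, so these are not 34 independent transcripts. At SUL2 the antisense transcript SUT694, which covers all 2682 bases of the gene, was 0.74 ± 0.20 higher with separated libraries but was not called (limma adjusted p = 0.159). Antisense transcripts at ARG1 differed by 0.37 to 0.39 and were not called (adjusted p = 0.485 to 0.514). Those overlapping ARG7 (13F-179) and MET5 (10F-310) differed by 0.05 ± 0.50 and -0.26 ± 0.35, not called (limma adjusted p = 0.981 and 0.831). Called antisense transcripts within 1 kb of RDS1, ARN2 and SRY1 were lower, like those genes, without overlapping them. SUT459, SUT147 and 11F-10 differed by -2.84 ± 0.31, -2.10 ± 0.22 and -1.82 ± 0.25 (limma adjusted p = 0.000798, 0.000798 and 0.00502).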

How the data were processed

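Total RNA was measured in 8 libraries of 4 strains, grouped by genotype labels and numbered by title. Per the labels' protocols, RNA was extracted with phenol and chloroform, fragmented to 100 to 200 nt and made into paired-end SOLiD libraries. TopHat 1.4.1 and build R64 are named per the submitters' processing notes; the counting tool is not given in the sources used here. For 7 libraries the deposited signal is a read count multiplied by a constant for that library, and dividing by the constant gave whole reads for 100% of values (tolerance 0.01). For GPD-SIR3 2 the authors deposited the counts themselves. Another 16 columns of per-sample values were not used. Systematic names paired 5789 of 5798 genes with the reference.

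The main fit of log2(value + 1) used limma 3.58.1 with a trend (R 4.3.3), with 4 strain means, 4 residual degrees of freedom and no further scaling, because the values are scaled. Calls are two-sided at 0.05 after Benjamini-Hochberg adjustment over 5473 genes; fold changes on this scale understate those of low genes. The alternatives used edgeR 4.0.16 (quasi-likelihood) and DESeq2 1.42.0 on whole reads, other scalings, pseudocounts and filters, other designs, and libraries or strains left out. edgeR called 30 genes higher and 98 lower. On simulated data for this contrast with 5449 genes, 44%, 90%, 96% and 100% of planted 1.5, 2, 4 and 8-fold changes were recovered, and 8.33% of 180 calls were unchanged genes. Planted changes were equal in all 4 GPD libraries, and no gene was given a difference between strains of a class. Genes with such differences are therefore not covered by these shares. Replicates of each strain differed by more than counting noise, with chi-square per degree of freedom of 16.2 to 43, which does not show that they are independent samples; where nothing says they are separate cultures, p-values measure the spread between these libraries only.

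The members, the 28 gene lists and the tests were chosen with earlier results of these data known. Genes were named by a rule: SIR3, TDH3, SIR1, SIR2, SIR4 and the 3 nearest genes on each side of SIR3, then the 15 largest differences in each direction among called genes with separated libraries, all genes called in 4 strain pairs, the 5 largest without separation in each direction, 3 called members at most from each list, or 2 where no member was called, and the 5 called separated genes of highest level. The remaining names were chosen with their values in view. Lists are described by counts and medians only. Motif windows and sequences were read from the RefSeq genome of build R64, and coordinates count from 1. A gene of the lists is not reported here by name.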

Additional observations from a re-analysis of the deposited data

Results flagged for a closer look

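For 26 named genes called over the GPD pair, the test of GPD-SIR3 minus GPD-SIR3-A2Q itself passed the threshold (limma, adjusted p below 0.05), so their value over the pair joins strains that differ. Of these, 17 were lower in GPD-SIR3. On the log2 scale the differences were -5.60 for RDS1, -5.46 for AAD3, -4.75 for ADH4, -4.42 for COS8, -4.35 for COS10, -4.15 for COS1, -3.92 for IMD2, -3.80 for PHO12 and -3.56 for SEO1. They were -3.54 for YPL279C, -3.50 for GIT1, -3.22 for ARN2, -2.72 for COS6, -2.68 for SRY1, -2.25 for ZRT1, -1.67 for PHO89 and -1.09 for TNA1.

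The other 9 were higher in GPD-SIR3. The differences were 0.84 for STE4, 1.71 for INO1, 1.77 for AXL1, 2.27 for HO, 2.37 for FUS3, 2.57 for STE18, 2.65 for STE3, 2.91 for MF(ALPHA)1 and 3.83 for MF(ALPHA)2. INO1, the first enzyme of inositol synthesis, had 232 and 223 in GPD-SIR3 and 59.5 and 79.8 in GPD-SIR3-A2Q, beside 48.4 and 52.9 in WT and 53.5 and 60.6 in SIR3Δ.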

How the results depend on the processing

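Counts are given as higher and lower genes. The reported counts were 36 and 82 called, 11 and 54 called with separated libraries, and 2 and 7 called in all 4 strain pairs. With 2 class means they were 4 and 27 called, all 4 and 27 with separated libraries. With the replicate block they were 73 and 116, with 21 and 68 separated and 14 lower in all 4 pairs. DESeq2 called 48 and 146, 83 lower with separated libraries, and 4 and 20 in all 4 pairs. Without the strain WT the counts were 55 and 74, with 54 higher separated; without GPD-SIR3 8 and 27, with 2 and 26 separated; without GPD-SIR3-A2Q 26 higher separated; and without SIR3Δ 9 and 52, with 32 lower separated. Without 1 library the ranges were 16 to 38 and 53 to 88 called, 4 to 12 and 36 to 54 separated, and 2 to 2 and 1 to 9 in all 4 pairs. The cause of these shifts was not tested, beyond the strain differences that 2 class means put into the spread. Of the 65 called genes with separated libraries, edgeR called 62, DESeq2 65, limma-voom 61, the block 65 and 2 class means 31.

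Replicate numbers alone do not establish a pairing by design, and the block result is given here only. The correlation of same-numbered deviations was 0.548 for WT with SIR3Δ and 0.302 for GPD-SIR3 with GPD-SIR3-A2Q. For strains of different classes it ran from -0.033 to 0.081. Shared handling of the libraries of a class was not tested and cannot be told apart from the construct in this design. TMM and DESeq2 scaling moved the median of all genes by -0.036 and -0.044.

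Directions turned for these genes. Without SIR3Δ: MF(ALPHA)2 -2.18, STE3 -1.74, HO -1.29, STE18 -1.23, FUS3 -1.19, MF(ALPHA)1 -1.12, AXL1 -0.85, STE4 -0.51 and YDL160C-A -0.19. Without GPD-SIR3: ADH4 0.63, IMD2 0.41, ARN2 0.22, COS8 0.049, COS1 0.029, SIR2 0.017, MRPL4 -0.064, STE3 -0.13 and MF(ALPHA)2 -0.000418. Without WT: YIL169C -1.0, HPF1 -0.47 and ECM7 0.28. TDH3 (reported 0.05) ran from -0.0068 without GPD-SIR3 1 to 0.099 without GPD-SIR3 2. YLR446W, reported at 0.00058, was -0.19 without GPD-SIR3, -0.071 without SIR3Δ, -0.020 with DESeq2, -0.043 with DESeq2 size factors, -0.035 with TMM, -0.015 with edgeR and -0.094 with limma-voom, and ran from -0.24 to 0.24 without 1 library. Fits with 2 class means or without a strain give no count over all 4 pairs. Of 65 named called genes 42 kept their call in all 8 leave-one-out fits and 16 with 2 class means. Genes with few reads in GPD-SIR3, such as AAD3 and RDS1, are limited by depth.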
